A study of Homo sapiens with 6 samples.

Results

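The plasminogen activator system genes examined here were 6 of the 60671 annotated genes in the matrix, taken by name: PLAU, PLAT, PLAUR, SERPINE2, SERPINB2 and F3. Bulk RNA-seq was done on 6 samples, of which 3 were tumor core (TC) and 3 were tumor margin (TM). Levels are given as TPM, a share of all transcripts that is corrected for transcript length and so can be compared between genes. Both groups came from tumors of wild-type MDA-MB-231, one human triple-negative breast cancer cell line labelled as epithelial, which had been injected orthotopically with Matrigel into the mammary fat pads of female NSG mice 6 to 8 weeks old. NSG mice lack mature lymphocytes and natural killer cells but keep macrophages, fibroblasts, endothelium and muscle, and no treatment set the groups apart. Whether a core and a margin came from the same mouse is not stated, and the p-values measure only the spread between these samples.

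Plasminogen activators turn plasminogen into plasmin, a protease that dissolves fibrin and cleaves proteins of the extracellular matrix. PLAU encodes urokinase (uPA), which acts at the cell surface when bound to its receptor uPAR (PLAUR), and PLAT encodes tissue plasminogen activator (tPA), best known from fibrinolysis in blood vessels. Serpins stop both proteases: SERPINE2 (protease nexin 1) also inhibits thrombin, and SERPINB2 (PAI-2) is largely kept inside the cell. F3 encodes tissue factor, the membrane receptor that starts coagulation and so the making of the fibrin that plasmin removes. High uPA and uPAR are a known trait of invasive breast cancer cells, and the margin is where a tumor meets host tissue, so the comparison of TC with TM asks whether the RNA of this system differs between the zones.

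Among the 6 genes PLAU had by far the highest RNA level in both zones. The order of the mean levels over the 6 samples was PLAU (1452 TPM), PLAUR (224.3), F3 (144.9), PLAT (35.06), SERPINE2 (34.34) and SERPINB2 (0.03833). The ranges of neighbours in this order were separate, except for PLAT and SERPINE2, of which PLAT was the higher in 2 of 6 samples. By limma 0 of the 5 tested members were called at an adjusted p of 0.05, against 0.137% of all tested genes. The values of TC and TM overlapped in each of the 6 members, while they did not overlap in 22.2% of all tested genes.

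The starts of 4 members are shown first, because they span the range of levels from the most abundant gene to the one barely detected, and because AP-1, a transcription factor made of FOS and JUN proteins, is known to act on several of these promoters. RefSeq gave windows of 300 bases (250 before a transcription start and 50 after it, GRCh38.p14) for 5 of the 6 members, 7 windows in all. The stretches below run 5′ to 3′ on the strand of the gene, lie before the start and, except for PLAUR, outside annotated exons of the gene. Capitals mark the AP-1 motif TGANTCA, the GC box GGGCGG and the TATA box TATAAA, each searched on both strands. 

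PLAU, chr10:73910882.0-73911103.0, plus strand: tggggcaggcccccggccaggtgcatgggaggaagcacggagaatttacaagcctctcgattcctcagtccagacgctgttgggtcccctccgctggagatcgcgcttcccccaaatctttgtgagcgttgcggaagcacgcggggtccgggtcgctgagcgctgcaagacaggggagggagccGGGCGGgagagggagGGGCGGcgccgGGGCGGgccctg
F3, chr1:94541801.0-94542009.0, minus strand: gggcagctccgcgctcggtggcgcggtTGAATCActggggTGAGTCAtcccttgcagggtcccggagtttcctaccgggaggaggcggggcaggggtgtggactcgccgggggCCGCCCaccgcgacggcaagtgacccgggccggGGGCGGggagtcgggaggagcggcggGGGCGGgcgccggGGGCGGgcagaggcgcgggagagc
SERPINB2, chr18:63887455.0-63887699.0, plus strand: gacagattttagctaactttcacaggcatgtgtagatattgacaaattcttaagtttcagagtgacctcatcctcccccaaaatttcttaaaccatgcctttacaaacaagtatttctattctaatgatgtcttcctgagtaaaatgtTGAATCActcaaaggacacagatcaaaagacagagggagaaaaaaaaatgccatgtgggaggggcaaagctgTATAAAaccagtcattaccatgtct
PLAUR, chr19:43670338.0-43670366.0, minus strand: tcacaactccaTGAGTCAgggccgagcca

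The window of PLAU with start site 73911132 held 3 GC boxes, 66, 51 and 40 bases before the start, and 0 AP-1 motifs. F3 held 2 AP-1 motifs, 223 and 210 bases before the start, with 4 GC boxes and a TATA box 28 bases before it that lies outside the stretch shown. PLAUR held 1 AP-1 motif at 186 bases, and SERPINB2 held 1 at 102 bases with a TATA box at 30 bases. The other window of PLAU held 0 of the 3 motifs, and the windows of SERPINE2 held GC boxes alone (1 and 2). Over all 35116 windows, 7.71% held the AP-1 motif, 45.0% the GC box and 11.5% the TATA box. A match is a description of letters and not of binding, and its absence concerns this window only.

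PLAU (ENSG00000122861, chromosome 10, 73909177 to 73917497 on GRCh38, GENCODE release 29) reached 1045.61 TPM in TC replicate 1, 1694.52 in replicate 2 and 1487.15 in replicate 3. In TM replicates 1 to 3, in the same order, it reached 1405.34, 1427.56 and 1653.93 TPM, and values below keep this order. Both extremes were TC samples, so that all TM values lay between them. PLAU ranked between 107 and 138 among all annotated genes in each sample and made up 70.2% to 79.4% of the summed TPM of the 6 genes. The TC mean was 1409 ± 331 TPM and the TM mean 1496 ± 138 TPM (SD, n = 3). Each difference is the TC mean minus the TM mean of log2(TPM + 1), tested with limma over the 13861 genes that reached 1 TPM in 3 samples, with p-values adjusted over all of them. For PLAU the difference was -0.11 (SE 0.19, limma adjusted p = 0.832), with a 95% confidence interval from -0.54 to 0.32, or 0.687-fold to 1.25-fold.

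PLAUR (ENSG00000011422, chromosome 19, 43646095 to 43670547), the receptor that holds uPA at the cell surface, had TC values of 195.86, 228.7 and 232.22 TPM and TM values of 196.54, 256.67 and 235.69 TPM. Replicate 1 was the lowest of both groups. The difference was -0.064 (SE 0.14, interval -0.39 to 0.26, limma adjusted p = 0.874). Receptor and ligand transcripts stood in a similar proportion in every sample: PLAU exceeded PLAUR 5.34-fold, 7.41-fold and 6.40-fold in the TC samples, and 7.15-fold, 5.56-fold and 7.02-fold in the TM samples.

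PLAT (ENSG00000104368, chromosome 8, 42175233 to 42207724), the other activator, was far less abundant than PLAU. It was at 37.68, 34.51 and 31.99 TPM in TC and at 32.72, 32.69 and 40.78 TPM in TM, with the highest value in TM replicate 3. The difference was -0.022 (SE 0.15, interval -0.37 to 0.33, limma adjusted p = 0.969). PLAU exceeded PLAT 27.7-fold in TC replicate 1 and between 40.6-fold and 49.1-fold in the other 5 samples.

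SERPINE2 (ENSG00000135919, chromosome 2, 223975112 to 224039319) was the tested member with the widest fold range over the samples. Its values were 38.28, 41.87 and 20.41 TPM in TC and 21.09, 36.92 and 47.49 TPM in TM. TC replicate 3 and TM replicate 1 were low and the other 4 samples were high, and this split ran across the zones, with a range of 2.33-fold. Its SD within groups on the log2 scale was 0.563, larger than that of 89.9% of the tested genes, against 50.5% for PLAU, 39.0% for F3, 20.6% for PLAUR and 15.6% for PLAT. The difference was -0.057 (SE 0.34, limma adjusted p = 0.964) with an interval from -0.85 to 0.73, or 0.556-fold to 1.66-fold, the widest interval among the 5 tested members.

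SERPINB2 (ENSG00000197632, chromosome 18, 63871692 to 63903890) was barely detected. The TC samples listed 0.11, 0 and 0 TPM, and the TM samples 0.06, 0 and 0.06 TPM. It did not pass the filter on low values and was the single member that was not tested. With no read counts, the limit that a value of 0 allows is unknown.

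F3 (ENSG00000117525, chromosome 1, 94529225 to 94541800) had the largest difference among the members. It was at 172.36, 133.46 and 159.03 TPM in TC and at 114.16, 163.57 and 127.1 TPM in TM. The highest sample was a TC and the lowest a TM sample, but TC replicates 2 and 3 lay within the TM range and TM replicate 2 within the TC range. The TC mean was 155 ± 19.8 TPM and the TM mean 134.9 ± 25.6 TPM (SD, n = 3), for a difference of 0.21 (SE 0.17, interval -0.18 to 0.59, limma adjusted p = 0.613). The difference was positive under all 16 alternative analyses, from 0.095 to 0.42, and passed the threshold in 0 of them. Those that changed only the filter, the assembled loci, the block or the moderation left the difference as it was by construction.

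**Figure D1:**
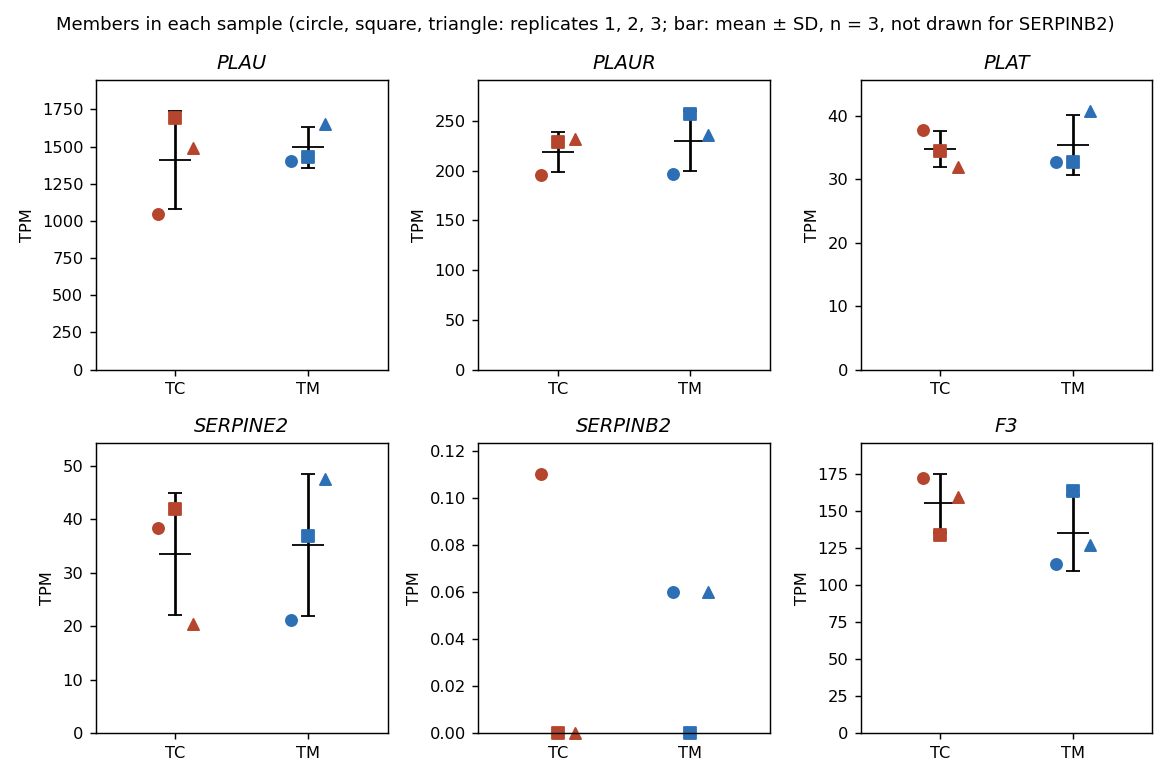
TPM of each member in the TC and TM samples, on linear axes that start at 0. Symbols are replicates 1, 2 and 3, and bars give the mean and SD (n = 3, not drawn for SERPINB2). TC and TM points overlap in every panel, and SERPINE2 ranges from 20.41 to 47.49 TPM, the widest range in fold terms among the 5 tested members.

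At an unadjusted threshold of 0.05, limma gave 0 of the 5 tested members, while over all 13861 tested genes 14.2% passed it with lower and 1.93% with higher values in TC. Of the members 4 had a negative and 1 a positive difference, and of all 13861 tested genes 9283 had a negative one. The median difference was -0.057 over the members and -0.14 over all tested genes.

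The direction of these small differences depended on how the samples were scaled. Median-of-ratios rescaling, which sets the typical gene level, moved the median of all tested genes from -0.14 to 0.049. It moved PLAU to 0.0999, PLAUR to 0.146, PLAT to 0.182, SERPINE2 to 0.145 and F3 to 0.416, so that all 5 were then higher in TC. The smallest limma adjusted p-value of a member over all alternatives was 0.39, for F3.

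**Figure D2:**
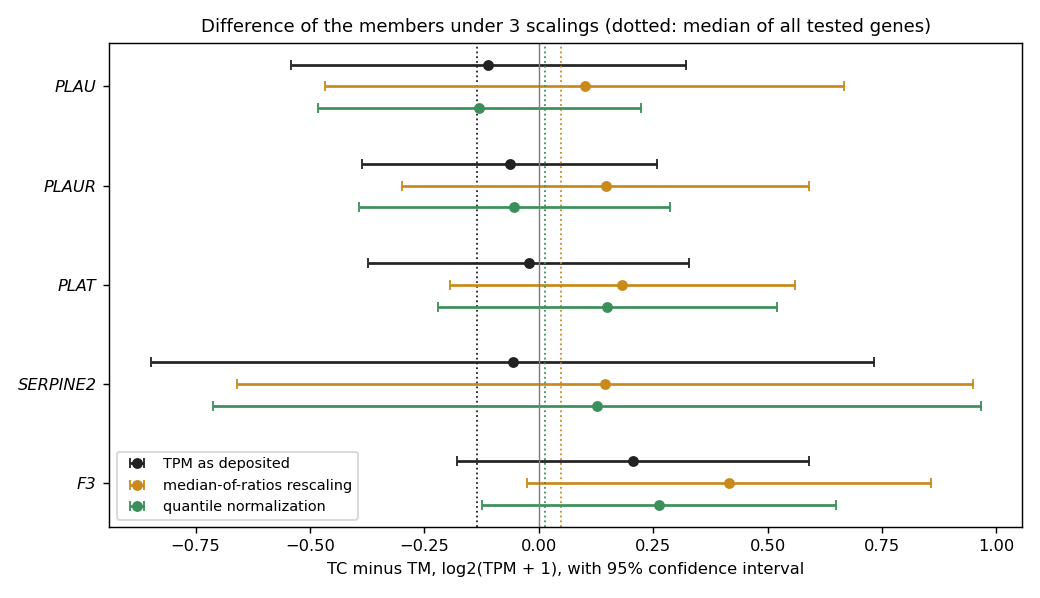
TC minus TM difference of the 5 tested members on the log2(TPM + 1) scale, with 95% confidence intervals, as deposited (black), after median-of-ratios rescaling (orange) and after quantile normalization (green). Dotted lines mark the median of all tested genes under each scaling. Every interval includes 0. The points of PLAU, PLAUR, PLAT and SERPINE2 are negative as deposited and positive after median-of-ratios rescaling, and those of F3 are positive throughout.

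Levels of the members were also compared with each other across the 6 samples. Of 10 pairs of tested members, PLAT and SERPINE2 had the highest correlation of log2(TPM + 1), with Pearson's r = 0.741 (exact permutation p = 0.0278, adjusted over the 10 pairs 0.278) and Spearman's rho = 0.886 (exact permutation p = 0.0333, adjusted 0.333). Without the 2 samples farthest from the median of PLAT, r was 0.768. PLAU and F3 had the lowest, r = -0.563 (exact permutation p = 0.236, adjusted 0.881) and rho = -0.371 (exact permutation p = 0.497, adjusted 1.00), and r was -0.132 without the 2 samples farthest from the median of PLAU. PLAU and PLAUR were at r = 0.607 (exact permutation p = 0.272, adjusted 0.881), rho = 0.486 (exact permutation p = 0.356, adjusted 1.00), and r = 0.286 without 2 samples. Leaving out 2 samples changed the order of the pairs: PLAU and PLAT went from r = -0.065 to 0.913, and SERPINE2 and F3 from 0.111 to -0.904, so the order depended on the samples left out. No pair passed after adjustment, all values share the libraries and their scaling, and cores and margins may share mice.

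For each member the most similar profiles among 9743 other tested genes with a mean of at least 5 TPM are given as a description, by Pearson's r over 6 samples. PLAU was closest to BANF1 (0.975) and SDF2 (0.968), and PLAUR to DHRS13 (0.964) and DNASE2 (0.963). PLAT was closest to MAN2B1 (0.991) and BDH2 (0.986). SERPINE2 was closest to SERPING1 (0.980) and NUAK1 (0.976), and F3 to COG3 (0.988) and LINC00339 (0.971). The 2 genes named for each member are the highest of 9743 candidates over only 6 samples. Values above 0.9 were reached by 20 of these candidates for PLAU and by 73 for PLAT.

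The genes around the members were examined next, in 6 lists of 45 genes in all, of which 29 passed the filter. Some partners of the members were barely detected as RNA aligned to the human genome. Plasminogen (PLG), the precursor of plasmin, had 0, 0.11 and 0 TPM in the TC samples and 0.35, 0.17 and 0.03 TPM in the TM samples. Vitronectin (VTN), a matrix protein bound by uPAR, did not exceed 0.15 TPM, and the tissue factor ligand F7 was listed at 0 in all 6 samples. These 3 genes were named after their values were seen. Their low RNA does not show whether the proteins, or RNA of the mouse host, were present in the tumors.

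The levels of the plasminogen receptors spanned a wide range, from PLGRKT, named after its values were seen, with a mean of 20.1 TPM to ANXA2. Annexin A2 (ANXA2), which forms a plasminogen-binding complex with S100A10, was the most abundant of its list, at 3628.12, 2895.07 and 3379.47 TPM in TC and at 3260.3, 3014.44 and 2621.01 TPM in TM (difference 0.15, SE 0.15, limma adjusted p = 0.676). S100A10, named after its values were seen, was at 1231.92, 1263.08 and 1138.96 TPM in TC and at 996.6, 1135.53 and 918.83 TPM in TM. Its groups did not overlap, by a margin of only a few TPM, with a difference of 0.26 (SE 0.13, limma adjusted p = 0.384). Of the 4 tested genes of this list 3 were higher and 1 was lower in TC, 0 were called, and the median difference was 0.21. Of all 13861 tested genes 4578 were higher in TC.

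Among the other inhibitors examined SERPINA5 (protein C inhibitor), a serpin that can also bind uPA, was the most abundant. It stood at 27.95, 35.97 and 24.69 TPM in TC, against 26.18, 15.73 and 31.23 TPM in TM, with overlapping groups (difference 0.30, SE 0.26, limma adjusted p = 0.637). Its lowest value was in TM replicate 2 and its highest in TC replicate 2. Of the 3 tested genes in this list 0 were called and 0 had an unadjusted p-value under 0.05, and the median difference was 0.20.

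**Figure D3:**
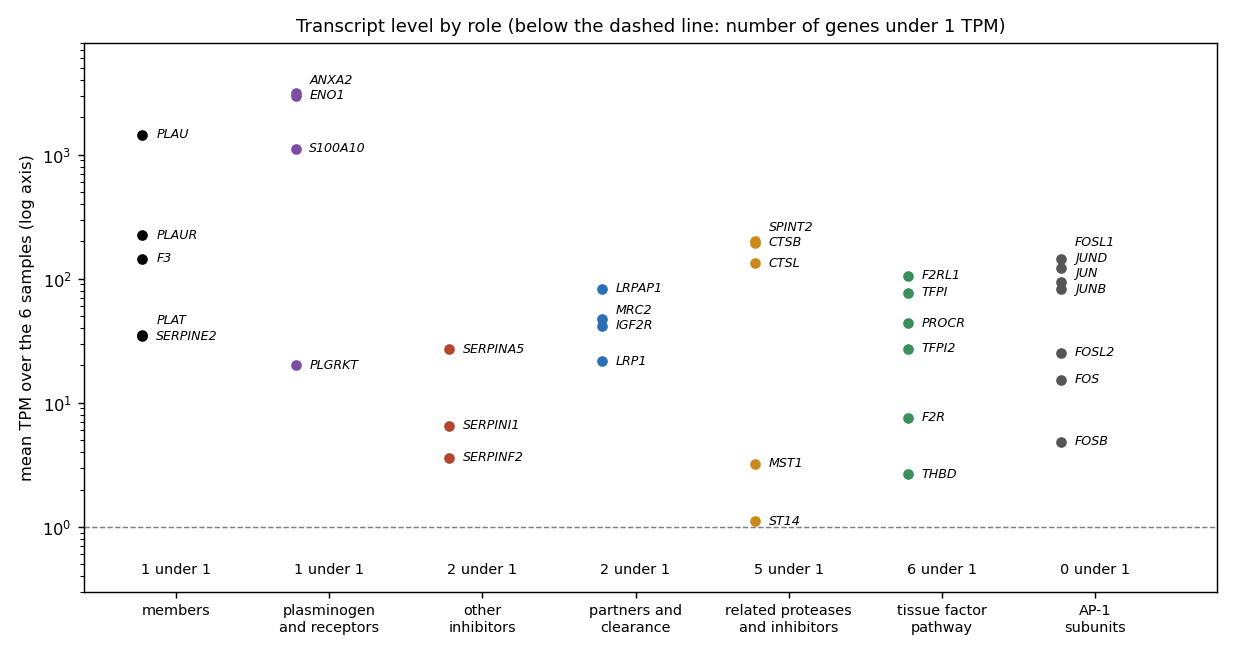
Mean TPM over the 6 samples on a log axis for the members and the 6 lists around them, grouped by role. Each point is a gene, and the number below the dashed line counts genes with a mean under 1 TPM. ANXA2 and ENO1 are the highest points, PLAU leads the members at 1452 TPM, and 6 of the 12 tissue factor pathway genes are under 1 TPM.

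Of the receptors that clear uPA and its complexes, 2 had lower values in every TC sample, as had 2617 of all 13861 tested genes. LRP1, the endocytic receptor that removes uPA complexes from the cell surface, was at 16.82, 17.47 and 12.73 TPM in TC and at 22.26, 28.16 and 32.42 TPM in TM. Each TC sample was below each TM sample, and the difference of -0.78 (SE 0.20, interval -1.24 to -0.31) did not pass after adjustment (limma adjusted p = 0.124). IGF2R, which binds uPAR and carries cargo to lysosomes, was at 36.31, 36.92 and 27.41 TPM in TC and at 42.62, 43.73 and 64.39 TPM in TM, also without overlap (difference -0.56, SE 0.20, limma adjusted p = 0.233). Both were lower in TC under all 16 alternatives, LRP1 from -0.92 to -0.58 and IGF2R from -0.66 to -0.35, with smallest limma adjusted p-values of 0.0948 and 0.173. Alternatives that changed only the filter, the assembled loci, the block or the moderation could not change these differences, only their p-values. The chaperone of LRP1, LRPAP1, was the most abundant gene of this list and had a difference of 0.16 (SE 0.14, limma adjusted p = 0.658). LRP1 and IGF2R have long transcripts (up to 14897 and 14044 bases), as has LRPAP1 (up to 10598 bases), whose difference was positive. The median difference was -0.20 over the 1036 tested genes with a transcript of at least 8000 bases, against -0.13 over shorter ones. Of these long genes 15.4% were lower in TC at an unadjusted limma p-value under 0.05, against 14.1% of the shorter ones. The part of length in these values was not tested. Of the 4 tested genes of this list 3 were lower in TC, as were 9283 of all 13861 tested genes. In this list 0 were called, with a median difference of -0.36.

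Over the remaining lists 2 further genes had an unadjusted p-value under 0.05, both lower in TC. MST1, a relative of plasminogen whose protein is a growth factor, was at 3.07, 1.56 and 1.95 TPM in TC and at 3.25, 4.71 and 4.85 TPM in TM (difference -0.74, SE 0.27, limma adjusted p = 0.233). It has near-identical copies in the genome, so its reads are uncertain. FOSL2, an AP-1 subunit, was at 22.58, 18.98 and 23.87 TPM in TC and at 30.32, 29.15 and 26.68 TPM in TM (difference -0.39, SE 0.16, limma adjusted p = 0.275). FOSL1, the most abundant AP-1 subunit, was at 93.49, 175 and 144.25 TPM in TC and at 137.77, 173.87 and 149.07 TPM in TM (difference -0.20, SE 0.22, limma adjusted p = 0.731). FOSB, named after its values were seen, had the most negative difference of the 29 tested list genes and also the widest interval, at -0.79 (SE 0.50, interval -1.93 to 0.36, limma adjusted p = 0.507). In that list 6 of 7 subunits were lower in TC and 0 were called, with a median difference of -0.22. Most tested genes were also lower in TC (9283 of 13861).

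In the list of proteases and their inhibitors the highest mean over the 6 samples belonged to SPINT2, an inhibitor of proteases that activate growth factors, at 201.2 TPM (difference 0.19, SE 0.14, limma adjusted p = 0.559), and the 5 tested genes of that list had a median difference of 0.11 with 0 called. The protease CTSB had a mean of 194.8 TPM and was above SPINT2 in TC replicate 1 and TM replicate 3. In the tissue factor pathway the highest level belonged to F2RL1, the receptor PAR2 through which tissue factor complexes signal. It was at 131.51, 117.36 and 92.87 TPM in TC and at 84.11, 88.67 and 121.45 TPM in TM (difference 0.22, SE 0.19, limma adjusted p = 0.634). TFPI, the inhibitor of tissue factor, named after its values were seen, was at 103.81, 73.66 and 56.47 TPM in TC and at 85.43, 68.34 and 76.8 TPM in TM (difference -0.017, SE 0.22, limma adjusted p = 0.982). The 6 tested genes of that list had a median difference of -0.050, and 0 were called.

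Over all 6 lists 0 of 29 tested genes were called by limma, and 0.137% of all genes were. At the unadjusted threshold 4 (13.8%) had lower and 0 had higher TC values, near the background of 14.2% and 1.93%. These counts are for TPM as deposited, and the genes behind them depended on the scaling. After quantile normalization 3 list genes passed the unadjusted threshold, and after median-of-ratios rescaling also 3. LRP1 was among them under both scalings, while IGF2R, MST1 and FOSL2 no longer passed under either, although all stayed lower in TC. The others that passed under these scalings had not passed as deposited, and their names and directions were not recorded. The groups did not overlap in 6 of the 29 genes (20.7%, against 22.2% of all genes), and the median difference was -0.017.

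**Figure D4:**
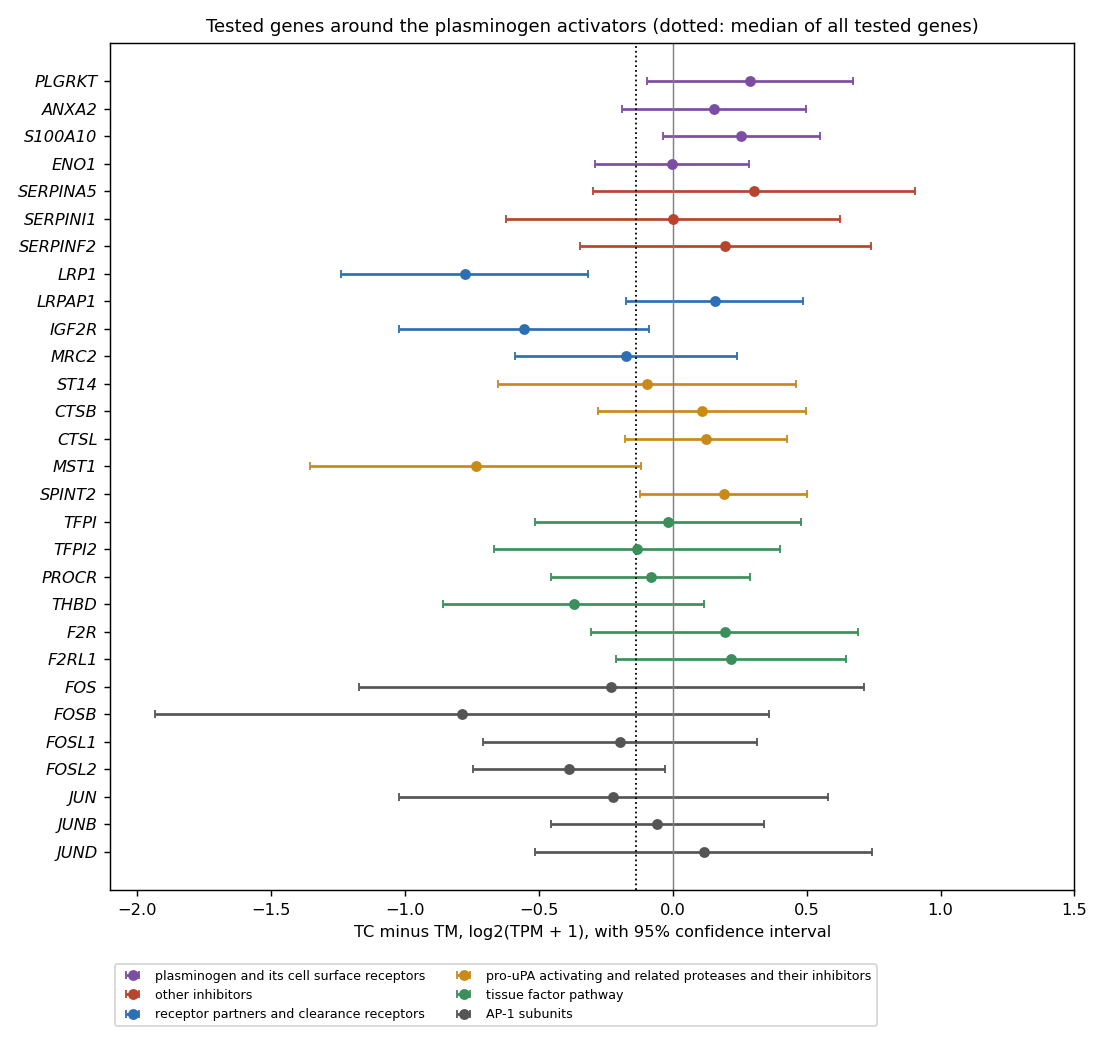
TC minus TM difference on the log2(TPM + 1) scale with 95% confidence intervals for the 29 tested genes of the 6 lists, coloured by list. The dotted line marks the median of all tested genes. With TPM as deposited, the intervals of LRP1, IGF2R, MST1 and FOSL2 lie below 0, and those of the other genes include it.

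Host RNA can add to human values where sequences are alike, since the sources used here describe no step that parts mouse from human reads, and fewer cells of a type cannot be told apart from less RNA per cell in bulk tissue. Of the cell line markers VIM and KRT18 had means of at least 460 TPM in both zones. KRT8, CD44 and EPCAM, of the same list, had means of 398.5, 230.1 and 4.625 TPM over the 6 samples. The epithelial marker CDH1 and the hormone receptors ESR1 and PGR stayed under 1 TPM. ERBB2, of the same list of 9, was at 22.31, 23.89 and 24.07 TPM in TC and at 40.73, 30.82 and 36.4 TPM in TM, without overlap (difference -0.59, SE 0.16, limma adjusted p = 0.128). The summed TPM of 10 fibroblast markers was 66.3 to 226 in TC and 479, 1007 and 91.5 in TM replicates 1, 2 and 3 (exact permutation p = 0.3, where the smallest possible is 0.1). Most of the sum came from COL1A1 and COL1A2, and 3 of these markers stayed under 1 TPM in every sample. FAP and PDGFRB, of the same list, were lower in each TC sample, as were LRP1 and IGF2R. Within TM, FAP and PDGFRB were highest in replicate 2, and LRP1 and IGF2R in replicate 3. The rest of the fibroblast list overlapped between the zones, and LUM and PDGFRA, under 1 TPM, had higher means in TC. FAP was at 0.62, 1.37 and 1.97 TPM in TC and at 2.98, 3.55 and 2.51 TPM in TM, and PDGFRB was at 2.51, 2.5 and 2.58 TPM in TC and at 3.45, 4.95 and 3.9 TPM in TM, neither with overlap (limma adjusted p = 0.21 and 0.303). The sum of 11 skeletal muscle markers was 8.05 to 11.6 in TC and 259, 638 and 5.13 in TM (exact permutation p = 0.4). PLAU, PLAT and SERPINE2 in TM replicates 1 and 2, the samples with most of this signal, lay within the range of their TC values, while PLAUR in TM replicate 2 lay above and F3 in TM replicate 1 below theirs. Without TM replicate 1 the difference of F3 was 0.0951 and without TM replicate 2 it was 0.353. For LRP1 these values were -0.917 and -0.754. Summed endothelial markers were 28.2 to 33.6 in TC and 30.7 to 42.7 in TM, macrophage markers 95.7 to 109.5 and 102.4 to 109.6, and adipocyte markers stayed at or under 1.09 in all samples. Erythroid markers summed to 1.06 to 6.93 in TC and 0.29 to 4.82 in TM. Most of the macrophage sum came from CD68, with a mean of 88.94 TPM, and most of the endothelial sum from ESAM, with 28.65 TPM. Of the 10 macrophage markers C1QA, C1QB and TYROBP were at 0 in all 6 samples and 6 in all stayed under 1 TPM. CSF1R, however, was at 1.99, 2.32 and 3 TPM in TC and at 4.07, 9.12 and 3.1 TPM in TM, without overlap (difference -0.80, SE 0.35, limma adjusted p = 0.314), and FCER1G, under 1 TPM, was also lower in each TC sample. Of the 8 endothelial markers EMCN was at 0 in all samples and 4 in all stayed under 1 TPM. PECAM1 and TEK, with low means of 0.44 and 0.478 TPM, were lower in each TC sample. VWF and CLDN5 had higher means in TC (0.253 and 0.453 TPM) than in TM (0.11 and 0.353 TPM), with overlap. The tested CDH5 and ESAM also overlapped (differences 0.040 and -0.29), as did KDR. The part of host RNA in the values of the members, of LRP1 and of IGF2R was not tested.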

How the data were processed

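RNA-seq values of 3 TC and 3 TM samples were used, grouped and numbered by their titles. The authors deposited TPM: they used SeqPrep and Sickle for trimming, HISAT2 for alignment (hg38, per the submitters' processing notes), StringTie for assembly and RSEM for gene-level quantification. The annotation release is not given in the sources used here. TPM keeps no depth, so the depth per sample is unknown, no counting interval could be given, and DESeq2, named in the study's methods, could not be run. The columns summed to 1000000, except for TM replicate 3 (994381). Other columns of values numbered 0.

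Values were transformed as log2(TPM + 1), which understates changes of low genes. Genes with at least 1 TPM in 3 of 6 samples were tested with limma 3.58.1 in R 4.3.3 (empirical Bayes with a mean-variance trend, no covariate, two-sided), with Benjamini-Hochberg adjustment over 13861 genes and a threshold of 0.05. The procedure was tested on simulated data. Single measures were compared by two-sided exact permutation tests. Positions came from GENCODE release 29, promoters from RefSeq (GRCh38.p14).

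Members and lists were chosen with earlier results of these data known. Named genes were the 6 members, list genes with an unadjusted p-value under 0.05, the most abundant gene of each list and the 2 profiles most like each member. Exceptions are marked. A list gene is not reported here and was left out of the list counts. Alternatives were a pseudocount of 0.1, no filter, a mean of at least 5 TPM, quantile and median-of-ratios scaling, removal of mitochondrially encoded genes, inclusion of 259 assembled loci, the replicate block, moderation without trend or in robust form, and leaving out each sample.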

Additional observations from a re-analysis of the deposited data

How the results depend on the processing

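Under all 16 alternatives 0 of the tested members and 0 of the list genes passed the adjusted threshold (limma), and 0 members had an unadjusted p-value under 0.05. Of all genes, 19 were called, against 7 with a pseudocount of 0.1, 1 without a filter, 4 after quantile normalization, 6 after median-of-ratios rescaling, 12 without the mean-variance trend, 47 with robust moderation, and 1 to 17 when a sample was left out (1 without TC replicate 3 or TM replicate 1, 4 without TC replicate 1, 9 without TM replicate 2). The differences of PLAU, PLAUR, PLAT and SERPINE2 turned positive after median-of-ratios rescaling (0.0999, 0.146, 0.182 and 0.145), and those of PLAT (0.149) and SERPINE2 (0.127) after quantile normalization. The rescaling divided all genes of a sample by one factor, 1.02, 0.938 and 0.852 for the TC samples and 1.17, 1.06 and 1.02 for the TM samples. Why these factors differed, and the cause of the changes after quantile normalization, were not tested. Over the fits that each left out a sample, PLAU ranged from -0.258 to 0.0899 (positive without TC replicate 1), PLAUR from -0.171 to 0.0203 (positive without TC replicate 1 or TM replicate 2), PLAT from -0.0811 to 0.081 (positive without TC or TM replicate 3) and SERPINE2 from -0.376 to 0.256 (positive without TC replicate 3, TM replicate 2 or TM replicate 3). F3 kept its direction under all 16, though changes of filter, assembled loci, block or moderation alone could not alter the direction of any gene.

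Samples with the same number share no stated origin. Their deviations from the group means correlated at 0.211, -0.121 and -0.165 for replicates 1, 2 and 3, and those of samples with different numbers at -0.232 to 0.317. In groups of 3 these values cannot show whether a core and a margin shared a mouse. Since no shared origin is stated, the number was not taken as a pairing. With the replicate block 1 gene was called in all, and 2 list genes in place of 4 had an unadjusted p-value under 0.05. TPM without depth and 3 samples per group limit what could be detected.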
